A study of Mus musculus with 6 samples.

Results

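The genes of mitosis and of the G2/M transition described here are 54 genes chosen by name, out of 24062 genes in the deposited count tables. All 54 were found in the tables, and all had at least 10 counts in at least 1 library. They cover the cyclins and kinases that start mitosis, the spindle checkpoint, the kinetochore, the spindle motors, cytokinesis and chromosome condensation. The cells were RAW264.7, an established line of mouse macrophages, and RNA of 6 conditions was sequenced with a single library for each. M0 cells were neither polarized nor irradiated. M1 cells received LPS at 100 ng/mL with IFN-γ at 20 ng/mL for 24 h, and M2 cells received IL-4 at 20 ng/mL for 24 h. RM0, RM1 and RM2 are the same 3 states after 10 Gy of gamma rays from a caesium source and a further 24 h of culture. Whether M0, M1 and M2 cells were also cultured for a further 24 h was not stated. Every comparison of irradiated with non-irradiated cells may thus also compare time in culture, and the 2 cannot be told apart. The doses are those of the labels, and other IFN-γ and IL-4 doses are given elsewhere in the study. The labels name bone marrow as the tissue beside this cell line. RNA of 5 wells was pooled for each library, so no difference between 2 libraries has a replicate check.

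Mitosis begins when cyclin B and the kinase CDK1 become active together at the end of G2. Chromosomes then condense, kinetochores attach them to spindle microtubules, and a checkpoint holds back the anaphase-promoting complex until every chromosome is attached. That complex, with its activator CDC20, destroys cyclin B and securin, after which the sister chromatids part and the cell divides. RNAs of many of these genes accumulate in G2 and M, so bulk levels follow both how many cells are in those phases and how much RNA each of them holds. These possibilities cannot be told apart in bulk libraries. Ionizing radiation is a classical trigger of the G1 and G2 checkpoints, in which p53 targets such as Cdkn1a restrain the cell cycle kinases.

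Many G2/M genes are known to carry a cell cycle genes homology region (CHR) near the start site, with the letters TTTGAA or TTTAAA, bound by the MuvB core, and CCAAT boxes bound by NF-Y. RefSeq promoter windows of GRCm38.p6, from 250 bases before to 50 bases after each start, were matched to 44 of the 54 genes. A CHR was present on either strand in 79.5% of the 44, against 30.6% of the 27025 genes with a window. CCAAT was present in 75.0% against 41.1%, and both motifs together in 68.2% against 12.2%. The E2F letters GCGGGAA were present in 2.27% against 5.29%. TTTAAA reads the same on both strands, and a CCAAT can share its last base with a CHR. These shares describe letters in a window and not binding. In the list of DNA replication and S phase genes, with 31 genes matched, a CHR was present in 29.0% and GCGGGAA in 45.2%. Other mitotic genes, with 59 matched, had a CHR in 57.6%, CCAAT in 66.1%, both in 40.7% and GCGGGAA in 16.9%. A high share of CHR and CCAAT was thus not particular to the 54 genes. Windows of up to 120 bases ending at or next to the start are shown for 8 genes. They include the pair that passed the irradiation test, Cdc20 and Ube2c, the entry kinases Cdk1 and Plk1, and the separase gene Espl1. The others are the topoisomerase gene Top2a, and Kif11 and Mki67, which differed between states. Only windows that held a CHR were printed, so its presence in each was fixed by that choice. Ccnb1, Kif22 and Bub3 were also considered. Each had a CHR in a full promoter window but not in the shorter stretch to be printed, and so was left out. Sequences run 5′ to 3′ on the gene's strand, capitals mark the CHR and CCAAT letters on either strand, and at most 30 bases of a window lie in an exon annotated for the gene in GENCODE M21.
Cdc20 chr4:118437344-118437463, minus strand: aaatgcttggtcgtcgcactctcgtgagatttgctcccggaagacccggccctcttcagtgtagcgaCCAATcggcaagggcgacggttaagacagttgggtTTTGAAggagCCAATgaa
Ube2c chr2:164769809-164769927, plus strand: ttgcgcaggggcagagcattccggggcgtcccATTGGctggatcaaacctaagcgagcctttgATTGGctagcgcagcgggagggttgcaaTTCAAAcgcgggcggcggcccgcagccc
Cdk1 chr10:69352913-69353032, minus strand: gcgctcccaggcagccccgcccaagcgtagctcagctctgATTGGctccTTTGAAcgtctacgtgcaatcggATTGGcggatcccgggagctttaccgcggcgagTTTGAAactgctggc
Plk1 chr7:122159315-122159434, plus strand: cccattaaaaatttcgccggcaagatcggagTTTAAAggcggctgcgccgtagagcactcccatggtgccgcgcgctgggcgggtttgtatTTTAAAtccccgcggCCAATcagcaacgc
Top2a chr11:99024190-99024309, minus strand: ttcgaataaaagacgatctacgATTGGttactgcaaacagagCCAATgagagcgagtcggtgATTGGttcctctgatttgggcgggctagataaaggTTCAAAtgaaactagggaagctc
Espl1 chr15:102296173-102296292, plus strand: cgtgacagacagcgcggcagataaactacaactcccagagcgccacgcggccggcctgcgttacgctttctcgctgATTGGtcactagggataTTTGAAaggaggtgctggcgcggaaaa
Kif11 chr19:37376262-37376381, plus strand: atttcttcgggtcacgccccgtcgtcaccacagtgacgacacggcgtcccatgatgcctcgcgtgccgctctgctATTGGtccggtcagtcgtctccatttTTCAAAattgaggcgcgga
Mki67 chr7:135716380-135716499, minus strand: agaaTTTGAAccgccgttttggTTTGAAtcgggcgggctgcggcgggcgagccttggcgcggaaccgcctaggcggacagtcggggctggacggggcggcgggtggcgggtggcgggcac
In Cdc20 the CHR began 18 bases before the start and CCAAT 53 and 8 bases before it. In Ube2c the CHR lay 29 bases before the start. Cdk1 had a CHR at 71 and another at 15 bases, and Plk1 at 89 and 29 bases. Mki67 had a CHR at 116 and at 98 bases and no CCAAT in the printed window. Among matched genes past the count minimum of 10 in M0 or RM0, the median log2 fold change of RM0 against M0 was -0.73 for the 35 with a CHR and -0.61 for the 9 without. The medians were -0.24 over 31 genes with and -0.10 over 9 without in RM1 against M1, -0.61 and -0.53 in RM2 against M2, and -0.77 and -0.40 in M1 against M0. The differences between genes with and without the letters were not tested. Bub1, Cdc25b, Mad2l1, Mybl2, Ncaph, Nuf2, Nusap1, Pttg1 and Sgol1 were the 9 without.

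Total counts per library were between 17894937 and 18870516, and the 54 genes had between 2 and 1624 counts each. TMM factors were between 0.8004 in M1 and 1.134 in M2, and levels below are in CPM, counts scaled with them to a common library size. The 11 macrophage markers were all detected, though Mertk had only 3 to 8 counts in each library. Their summed level was between 22200 and 37400 CPM, and Lyz2 gave most of it, with 23700 of 30600 CPM in M0. Of 8 B and T lymphocyte markers, 5 were at 0 in every library, and the sum was between 0.0676 and 0.252 CPM. The 8 fibroblast markers summed to 6.71 to 10.3 CPM in M0, M2, RM0 and RM2, with 3 of them at 0 in every library. In M1 and RM1 they summed to 43.8 and 45.9 CPM, of which Dcn alone gave 42.4 and 43.5 CPM. Lum was also higher there, while Col1a1 had 6 counts in M0, 1 in M1, 11 in RM0 and 0 in RM1. The 6 granulocyte markers, carried by S100a8, summed to 141 to 340 CPM in M0, M2, RM0 and RM2. They summed to 2200 CPM in M1 and 3070 CPM in RM1. Their part in the M1 values given below was not tested. The M1 marker Nos2 had 14393 counts in M0 and 169925 in M1, and the M1 marker Cd86 had 176 and 493. Of the M2 markers, Arg1 had 0, 5 and 31 counts in M0, M1 and M2. Mrc1 had 10, 50 and 6 counts there, and so was highest in M1. Retnla and Chil3 were at 0 in every library.

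Irradiation went with lower levels of nearly all of these genes in M0 and M2 cells, and of fewer of them in M1 cells. Summed over the 54 genes, the level was 860 CPM in M0 and 612 CPM in RM0, 960 CPM in M2 and 700 CPM in RM2, and 759 CPM in M1 and 692 CPM in RM1. Log2 fold changes were taken from scaled counts with a prior count of 2. In RM0 against M0, 53 of 54 genes were below 0, with a median of -0.65, while the median of all 11688 genes with at least 10 counts was -0.0008. In RM2 against M2, 53 of 54 were below 0 with a median of -0.62. In RM1 against M1, 36 of the 49 genes with enough counts were below 0 and 13 above, with a median of -0.26. Over genes with enough counts, the lowest and highest values were -1.35 and 0.09 in RM0, -1.48 and 0.68 in RM1, and -1.28 and 0.09 in RM2. The plot of irradiation changes by gene shows the difference between the states.

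**Figure D1:**
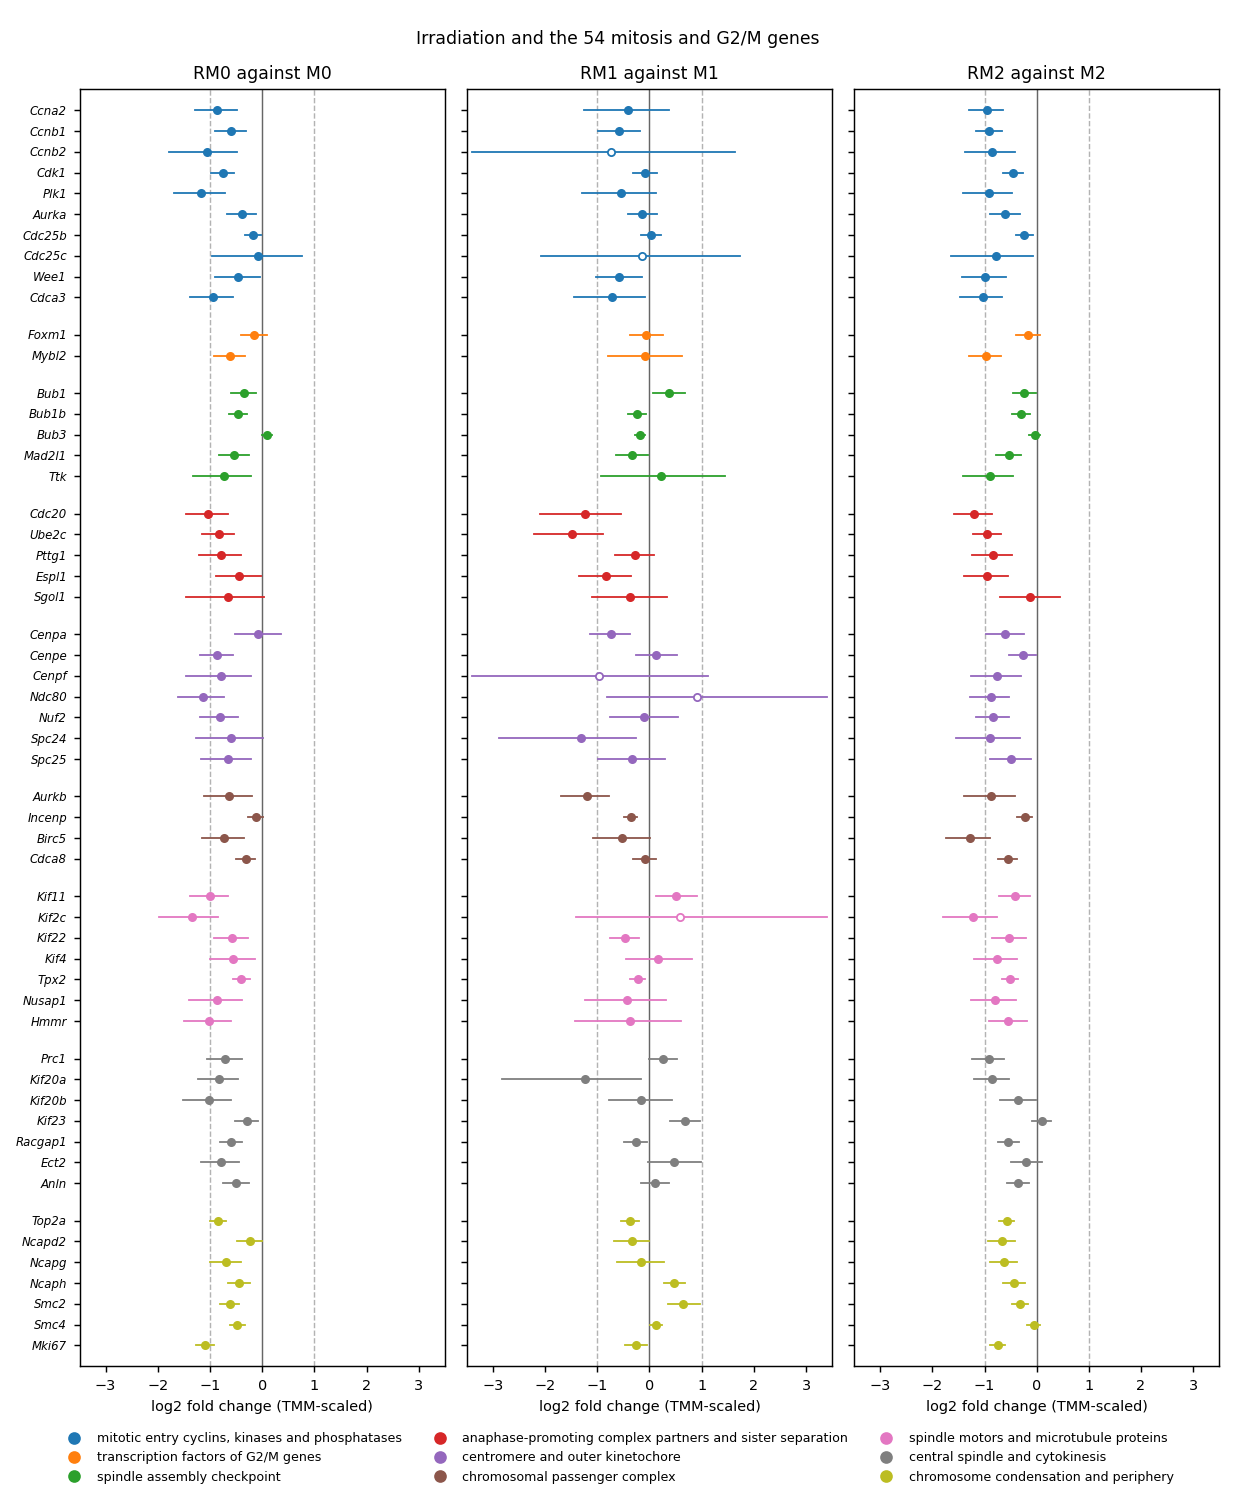
Log2 fold change (x axis, TMM-scaled counts) of each of the 54 genes (y axis, coloured by mitotic step) for RM0 against M0, RM1 against M1 and RM2 against M2, with exact 95% intervals that cover counting error only and are drawn to ±3.4. Open circles are genes with under 10 counts in both libraries, and dashed lines mark 2-fold. In the first and last panels 53 of 54 genes lie left of 0, and in the middle panel 36 of the 49 filled circles do.

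A 2-fold difference was the call between 2 libraries, and it compares those libraries only. In RM0 against M0, 9 of the 54 genes were called lower and 0 higher, where 0.821% of all genes tested were called lower and 0.719% higher. The 9 were Kif2c, Plk1, Ndc80, Mki67, Ccnb2, Cdc20, Kif20b, Hmmr and Kif11. RM2 against M2 gave 4 lower, namely Birc5, Kif2c, Cdc20 and Cdca3, and 0 higher, against 0.932% and 1.03% of all genes. RM1 against M1 gave 5 lower, namely Ube2c, Spc24, Kif20a, Cdc20 and Aurkb, and 0 higher, against 2.25% and 3.08% of all genes. Cdc20 was the gene called in all 3 comparisons, Kif2c was called in 2 of them, 13 genes were called in 1 and 39 in none. The exact 95% counting interval lay below 0 for 47 of 54 genes in RM0, against 14.8% of all genes, for 48 of 54 in RM2, against 19.5%, and for 20 of 49 in RM1, against 30.4%. In RM1 it lay above 0 for 6 genes, against 26.8% of all genes. Of the 49 genes with enough counts in every comparison, 35 were below 0 in all 3, against 19.6% of all genes.

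To ask for an effect common to the 3 states, counts were fitted on polarization plus irradiation in edgeR (quasi-likelihood test), with Benjamini-Hochberg adjustment over 11574 genes. The states stand in for replicates, which leaves 2 residual degrees of freedom. Cdc20 and Ube2c fell, where 0.13% of all genes passed lower and 0.346% higher, and no member rose. The median over the 54 genes was -0.53, against -0.01 over all genes tested, 53 of 54 were below 0, against 52.5% of all genes, and 38 of 54 had an unadjusted p under 0.05, against 14.7%. The count rested on which states entered. Without M1 and RM1 41 genes passed lower, against 2.27% of all genes, without M0 and RM0 8 passed, against 2.24%, and without M2 and RM2 1 passed, against 0.32%. Each of these fits rested on the 2 states kept and left 1 residual degree of freedom. With scaling by library totals 0 passed, with 0 of all genes lower, and DESeq2's Wald test called 4, against 0.302%.

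The anaphase-promoting complex is a ubiquitin ligase, and the genes of its mitotic partners had medians of -0.79, -0.83 and -0.95 in RM0, RM1 and RM2, the lowest of the 9 steps in RM1 and RM2. Cdc20, which activates the complex at anaphase, stood at 8.37, 3.25 and 11.1 CPM in M0, M1 and M2 and at 4.03, 1.32 and 4.79 CPM in RM0, RM1 and RM2. Each irradiated library was thus below the non-irradiated library of its state. Fold changes were -1.03, -1.23 and -1.20 on the log2 scale, and the common effect was -1.17 (adjusted p = 0.0217, edgeR quasi-likelihood test). Ube2c, the E2 enzyme that starts ubiquitin chains for the complex, stood at 12.5, 4.87 and 17.3 CPM without irradiation and at 6.94, 1.68 and 8.87 CPM with it. Its values were -0.83 in RM0, -1.48 in RM1 and -0.95 in RM2, with a common effect of -1.03 (adjusted p = 0.0266, same test). Cdc20 lies on chromosome 4 at 118432901 to 118437343 and Ube2c on chromosome 2 at 164769929 to 164772902 of GRCm38. The span listed for Ube2c covers 33.3% of its annotated gene, 22.8% of its exon bases lie opposite Tnnc2, and the counting was not stated to use strand. Pttg1, which encodes securin, had 142, 133 and 167 counts in M0, M1 and M2 and 80, 123 and 90 after irradiation. Its counting interval in RM1 included 0, while those in RM0 and RM2 lay below it. Espl1, the separase that cuts cohesin, had log2 values of -0.44, -0.83 and -0.95 in RM0, RM1 and RM2, and Sgol1, which protects centromeric cohesin, had -0.67, -0.36 and -0.13 with intervals that all included 0. All 5 genes of this step were below 0 in each of the 3 comparisons.

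Genes for the cyclins, kinases and phosphatases of mitotic entry were below 0 in 10 of 10 cases in RM0 and in RM2, with medians of -0.68 and -0.88, and in 7 of 8 in RM1, with a median of -0.48. Cdk1, the kinase that drives entry, stood at 25.3, 20.6 and 26.2 CPM in M0, M1 and M2 and at 14.9, 19.4 and 19.1 CPM in RM0, RM1 and RM2. Its log2 value was -0.76 in RM0 and -0.45 in RM2 but -0.09 in RM1, where the counting interval included 0. Ccnb1, the cyclin B1 that partners it, was at -0.60, -0.58 and -0.91, all with intervals below 0. Of the 100-base stretches of its longest transcript, 28.6% also occur in transcripts of other genes, the highest share among the members. Next came Kif20a with 27.4%, Cdc25c with 20.7% and Mybl2 with 20.0%. Plk1, a kinase that acts on centrosomes, kinetochores and entry itself, was at -1.17, -0.55 and -0.92. Aurka, the centrosomal Aurora kinase, stood at 13.1, 14.6 and 13.0 CPM without irradiation and at 9.90, 13.3 and 8.52 CPM with it, so that M1 and RM1 were close. Cdc25b, a phosphatase that activates CDK1, varied least in this group, with 766, 433 and 694 counts without and 673, 500 and 576 counts with irradiation. Wee1, the kinase that holds CDK1 inactive, was lower as well, at -0.46, -0.58 and -0.99. Ccna2 was at -0.86, -0.41 and -0.96 and Cdca3, a trigger of WEE1 degradation, at -0.95, -0.73 and -1.04, counted over spans that cover 74.9% and 84.9% of the annotated genes. Ccnb2 and Cdc25c had under 10 counts in M1 and RM1, and in RM0 they were at -1.07 and -0.09. No gene of this step passed the common test, in which the smallest adjusted p was 0.0583, for Cdca3, and 8 of 10 had an unadjusted p under 0.05.

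Of the transcription factors that activate G2/M genes, Foxm1 stood at 15.2, 11.0 and 16.9 CPM without irradiation and at 13.6, 10.6 and 15.1 CPM with it. All 3 of its counting intervals included 0. Mybl2, which joins the MuvB core in S phase, stood at 12.5, 2.37 and 13.7 CPM in M0, M1 and M2 and at 8.11, 2.22 and 6.91 CPM in RM0, RM1 and RM2. It was lower after irradiation in M0 and M2 cells and was low in M1 cells with or without irradiation. The span listed for it covers 55.1% of the annotated gene.

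The spindle assembly checkpoint delays anaphase while kinetochores are unattached, and its genes had medians of -0.46, -0.18 and -0.30 in RM0, RM1 and RM2. Bub3, which carries BUB1 and BUBR1 to kinetochores, stood at 77.9, 104 and 76.5 CPM without and 82.9, 91.9 and 74.5 CPM with irradiation. It was the single gene of the 54 above 0 in RM0, at 0.09 with an interval that included 0. Bub1b, which encodes BUBR1, stood at 33.8, 37.3 and 30.7 CPM without and 24.5, 31.6 and 24.9 CPM with irradiation, and its interval was below 0 in each state. Bub1 stood at 17.1, 10.6 and 19.2 CPM in M0, M1 and M2 and at 13.4, 13.7 and 16.3 CPM in RM0, RM1 and RM2. It was therefore lower in RM0 and RM2 and higher in RM1, at 0.37 on the log2 scale. Mad2l1, the MAD2 protein that inhibits CDC20, was at -0.54, -0.33 and -0.53, and its listed span covers 46.7% of the annotated gene. Ttk, the kinase MPS1 that starts checkpoint signalling, was at -0.74, 0.22 and -0.90 and had 12 counts in M1.

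At the centromere and outer kinetochore all 7 genes were below 0 in RM0 and in RM2, with medians of -0.79 and -0.75. Nuf2, a subunit of the NDC80 complex that grips microtubules, had 185, 42 and 226 counts without and 103, 44 and 123 with irradiation. Ndc80 itself was at -1.14 in RM0 and -0.88 in RM2, Spc24 at -0.59 and -0.89, and Spc25 at -0.66 and -0.50. All 4 subunits of the complex were below 0 in both states, with an interval for Spc24 in RM0 that included 0, and none passed the common test. Cenpa, the histone H3 variant that marks centromeres, stood at 4.69, 10.0 and 8.09 CPM in M0, M1 and M2 and at 4.44, 5.94 and 5.29 CPM in RM0, RM1 and RM2. Its level was thus close in M0 and RM0 and lower after irradiation in the polarized states. Cenpe, a kinetochore motor, stood at 12.3, 6.63 and 13.4 CPM without and 6.69, 7.26 and 11.1 CPM with irradiation. In RM1 Spc24 was at -1.31 and Cenpe at 0.13, and Ndc80 and Cenpf had under 10 counts in both libraries of the pair.

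The chromosomal passenger complex corrects faulty attachments and then moves to the central spindle. All 4 of its genes were below 0 in each comparison, with medians of -0.48, -0.44 and -0.71. Aurkb, its kinase, had the lowest value in RM1, at -1.21, with -0.64 in RM0 and -0.87 in RM2. Birc5, which encodes survivin, had 144, 68 and 169 counts without and 85, 53 and 67 with irradiation, and its value of -1.28 was the lowest of all 54 genes in RM2. Incenp, the scaffold, stood at 41.4, 68.4 and 42.0 CPM without and 38.1, 53.1 and 35.8 CPM with irradiation. Cdca8, which encodes borealin, stood at 29.4, 21.6 and 31.7 CPM without and 23.6, 20.2 and 21.6 CPM with irradiation. These last differences were small beside those of Aurkb and Birc5.

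Among spindle motors and microtubule proteins, 7 of 7 genes were below 0 in RM0 and in RM2, with medians of -0.87 and -0.54. Kif2c, a kinesin that takes apart microtubule ends at centromeres, had 104 counts in M0, 113 in M2, 39 in RM0 and 46 in RM2, and 3 in M1 and 6 in RM1. Its values of -1.35 in RM0 and -1.23 in RM2 were both past 2-fold. Kif11, the motor that separates spindle poles, stood at 9.73, 6.15 and 11.8 CPM in M0, M1 and M2 and at 4.80, 8.76 and 8.77 CPM in RM0, RM1 and RM2. It was lower in RM0 and RM2, at -1.004 and -0.42, and higher in RM1, at 0.50 with an interval from 0.121 to 0.903. Kif22, a chromosome-arm motor, stood at 10.3, 16.2 and 10.1 CPM without and 6.84, 11.6 and 6.96 CPM with irradiation. Tpx2, which activates Aurora A on the spindle, stood at 36.7, 57.4 and 41.4 CPM without and 27.7, 49.1 and 28.9 CPM with irradiation. Both were lower after irradiation in all 3 states. Hmmr and Nusap1, which bind spindle microtubules, were at -1.01 and -0.87 in RM0 and -0.54 and -0.80 in RM2, and Kif4 was at -0.56 and -0.77.

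The central spindle and cytokinesis formed the only step whose median was above 0 in RM1. All 7 were below 0 in RM0, with a median of -0.71, 6 of 7 in RM2, with a median of -0.35, and 3 of 7 in RM1, with a median of 0.11. Kif23, the kinesin of centralspindlin, stood at 21.1, 10.6 and 25.4 CPM in M0, M1 and M2 and at 17.1, 17.1 and 27.1 CPM in RM0, RM1 and RM2. It was the single gene above 0 in RM2 and had the highest value of RM1, at 0.68, among the 49 genes with enough counts. Racgap1, its partner in centralspindlin, stood at 23.6, 24.3 and 25.2 CPM without and 15.7, 20.2 and 17.3 CPM with irradiation, and so was lower in every state. Anln, the scaffold anillin of the cleavage furrow, stood at 16.8, 13.6 and 20.4 CPM without and 11.9, 14.6 and 15.9 CPM with irradiation, and the span listed for it covers 16.0% of the annotated gene. Prc1, which bundles the central spindle, was at -0.71 in RM0, -0.92 in RM2 and 0.26 in RM1. Ect2, the exchange factor that switches on RhoA, was at -0.79, -0.20 and 0.46 in the same order. Kif20a, a kinesin needed for cytokinesis, was at -0.83, -0.85 and -1.24, and Kif20b at -1.03, -0.35 and -0.17. The span listed for Kif20a covers 15.6% of its annotated gene, and 29.3% of its exon bases lie opposite Cdc23.

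Among genes of chromosome condensation and the chromosome periphery, Mki67, which coats mitotic chromosomes and serves as a proliferation marker, had 935, 407 and 1058 counts without and 431, 383 and 616 with irradiation. Its log2 values were -1.10 in RM0, -0.26 in RM1 and -0.75 in RM2. Top2a, which untangles sister DNA, stood at 48.4, 39.2 and 53.1 CPM without and 26.8, 30.4 and 35.5 CPM with irradiation. Its values of -0.85, -0.37 and -0.58 all had intervals below 0, and its common effect was -0.60 (adjusted p = 0.0532, edgeR quasi-likelihood test). Smc4, the core of condensin, stood at 47.2, 66.3 and 54.2 CPM without and 33.8, 72.4 and 52.0 CPM with irradiation, so that its interval was below 0 in RM0 alone. Its partner Smc2 was at -0.62 in RM0, -0.32 in RM2 and 0.65 in RM1. Of the condensin I subunits, Ncapd2 was at -0.24, -0.34 and -0.67 in RM0, RM1 and RM2, Ncapg at -0.70, -0.17 and -0.64, and Ncaph at -0.45, 0.47 and -0.43. Ncapg and Ncapd2 were counted over spans that cover 5.57% and 20.4% of the annotated genes.

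Whether the irradiation change in M1 cells differed from that in M0 and M2 cells was asked with an added term in the same edgeR fit, a test chosen after the data had been seen. It leaves 1 residual degree of freedom and rests on 1 pair of libraries in M1. For 6 of the 54 genes the change in M1 was higher, and for 0 lower, where 4.05% of all genes passed higher and 4.61% lower. They were Kif11 with a difference of 1.20 on the log2 scale (adjusted p = 0.00166), Smc2 with 1.12, Prc1 with 1.09, Ncaph with 0.92, Kif23 with 0.78 and Mki67 with 0.66. Kif11 and Smc2 stood lower in M1 than in M0 before irradiation, while Ncaph stood at 22.4 and 21.4 CPM in M0 and M1. With scaling by library totals 13 genes passed higher, against 12.6% of all genes. The plot of levels by state gives the 6 genes.

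**Figure D2:**
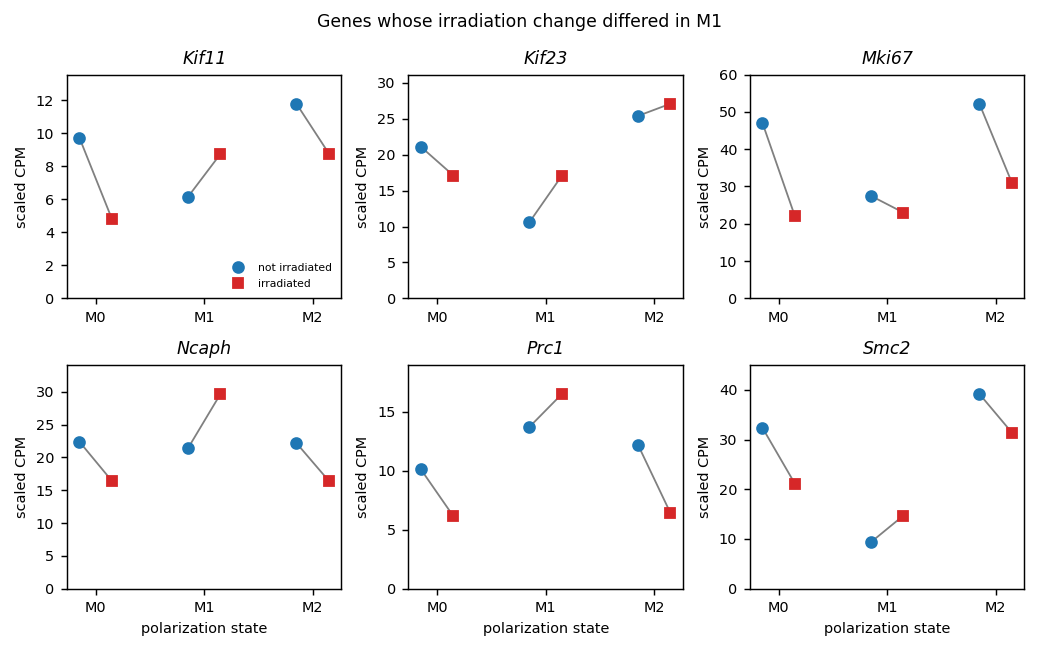
Level (y axis, TMM-scaled CPM) of the 6 genes whose irradiation change in M1 differed from that in M0 and M2 in edgeR's quasi-likelihood test, by polarization state (x axis), with 1 library per point. Circles are non-irradiated and squares irradiated libraries. Lines go down in M0 for all 6 genes, and up in M1 for all but Mki67, which went from 27.5 to 23.0 CPM.

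Polarization to M1 divided the 54 genes, some of which were nearly lost while others were higher. In M1 against M0, 21 genes were called lower and 1 higher at 2-fold, against 13.3% and 9.37% of all genes, and the values ran from -4.62 to 1.08 with a median of -0.67. In RM1 against RM0, 13 were lower and 2 higher, against 7.87% and 6.16%, with values from -3.05 to 1.41 and a median of -0.21. These comparisons share no library. The same 13 genes were 2-fold lower in both, against 5.86% of all genes. In edgeR's quasi-likelihood test 23 genes fell and 7 rose with M1, against 24.3% and 23.3% of all genes, so the share of members that fell, not the share that rose, stood above that of all genes. With scaling by library totals, which moved the median of all genes to -0.46 in M1 against M0, 32 fell, against 41.0% of all genes, and 0 rose, against 9.43%, so the rises depend on the scaling.

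The genes lowest in M1 were named after their values were seen. Ndc80 had 150, 3 and 179 counts in M0, M1 and M2 and 66, 8 and 94 in RM0, RM1 and RM2. Its log2 ratio in M1 against M0 was -4.62, with a counting interval from -7.51 to -3.65. Kif2c, with 3 counts in M1, was at -4.11 with an interval from -6.99 to -3.10. Both libraries of M1 cells were far below the other 4 for these genes. Ccnb2, a mitotic B cyclin, had 68, 4 and 106 counts without and 31, 2 and 56 counts with irradiation. Cenpf, a large kinetochore protein, had 63, 5 and 105 counts without and 35, 2 and 60 with irradiation, and Kif20a had 166, 19 and 221 without and 91, 8 and 119 with. In these 3 genes too, M1 and RM1 did not overlap with the other 4 libraries. The share of all genes separated in this way was not computed. Mybl2, Hmmr, Ttk and Ccna2 fell with M1 by 2.13, 1.98, 1.78 and 1.70 on the log2 scale.

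Genes that rose with M1 in the same edgeR test were Prc1, Smc4, Cenpa, Tpx2, Kif22, Incenp and Pttg1, with values of 0.96, 0.79, 0.77, 0.74, 0.70, 0.60 and 0.58, and each of them lost its call with scaling by library totals. Tpx2 stood at 57.4 CPM in M1 and 49.1 CPM in RM1 against 27.7 to 41.4 CPM in the other 4 libraries. Incenp stood at 68.4 and 53.1 CPM in M1 and RM1 against 35.8 to 42.0 CPM elsewhere, and Kif22 at 16.2 and 11.6 CPM against 6.84 to 10.3 CPM. In TMM-scaled levels of these 3 genes the libraries of M1 cells did not overlap with the rest, and the same held for Smc4 and Prc1. How many of all genes were separated in this way was not computed. Raw counts, from libraries of similar totals, were not separated for Tpx2, Kif22, Smc4 or Prc1. In M2 these had 839, 204, 1100 and 248 counts. Tpx2 and Kif22 had fewer in RM1, at 818 and 194, and Smc4 and Prc1 fewer in M1, at 981 and 203. Incenp had 886 counts in RM1 and 852 in M2. Of the NDC80 complex, Ndc80, Nuf2 and Spc24 fell, and Spc25 was also below 0, at -0.55 (adjusted p = 0.0888). Of the condensin core, Smc2 fell by 1.12 and Smc4 rose by 0.79. Of the passenger complex, Incenp rose, and Aurkb, Birc5 and Cdca8 had values of 0.49, -0.56 and -0.33 that did not pass. Spans listed for Tpx2 and Smc4 cover 59.4% and 62.0% of the annotated genes.

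**Figure D3:**
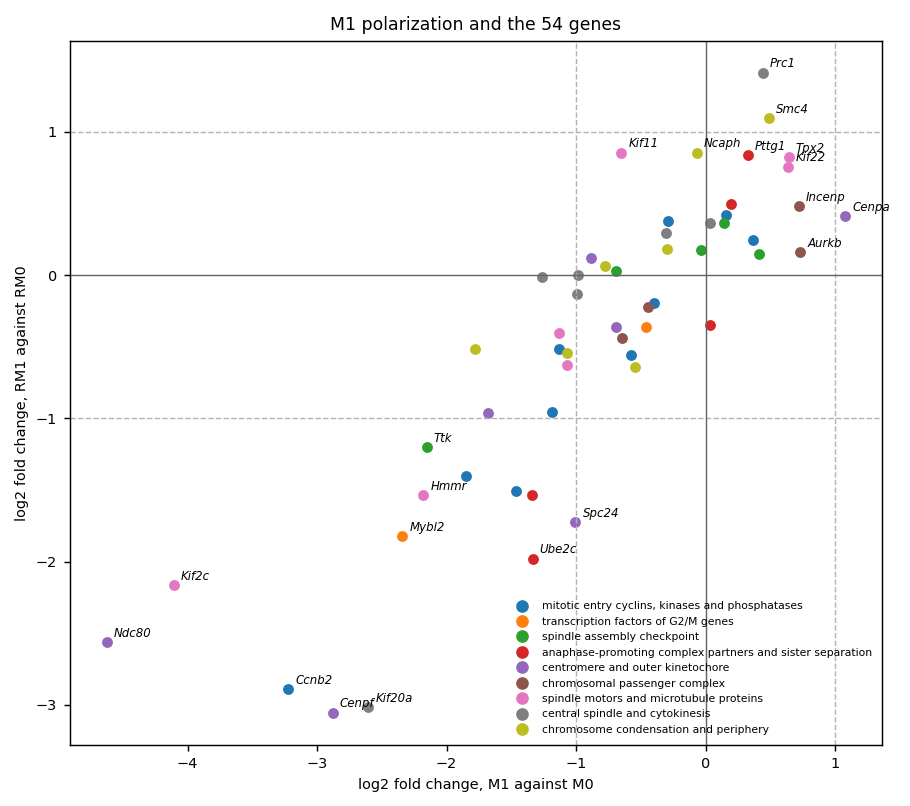
Log2 fold change of the 54 genes in M1 against M0 (x axis) and in RM1 against RM0 (y axis), coloured by mitotic step, with dashed lines at 2-fold. The 13 genes in the lower left corner past both lines were lower in both comparisons, with Ndc80 at -4.62 and -2.56, while Prc1 lies highest at 0.44 and 1.41.

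Polarization to M2 went with small differences in the other direction. In M2 against M0, 0 genes were called lower or higher, against 0.442% and 0.995% of all genes, and 46 of 54 were above 0 with a median of 0.21. In RM2 against RM0, 0 were called, against 0.953% and 1.66%, and the median was 0.25. The counting interval lay above 0 for 22 genes in M2, against 12.8% of all genes, and for 23 in RM2, against 26.5%. Cenpa was highest in M2 against M0, at 0.77, followed by Ccna2 and Cenpf at 0.69 and Ccnb1 at 0.66. In edgeR's quasi-likelihood test 0 genes passed the M2 term, against 0.0346% lower and 0.156% higher of all genes. In that test 11 had an unadjusted p under 0.05, against 10.1% of all genes, and the smallest adjusted p was 0.387. DESeq2's Wald test called 0, and the share of all genes was not computed for it. The chart of levels relative to M0 places the 6 libraries side by side.

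Other lists of cell cycle genes were read beside the 54. DNA replication and S phase genes had lower values after irradiation, with 40 of 40 below 0 in the common fit, a median of -0.50, and 5 genes that fell in edgeR's quasi-likelihood test. Of its 3 genes with the most counts, the helicase subunit Mcm2 fell by 0.60 (adjusted p = 0.0266), and the sliding clamp Pcna and the licensing factor Cdt1 had values of -0.35 and -0.45 that did not pass. Other mitotic genes, 68 in the fit, had a median of -0.35 with 1 that fell. Their medians were -0.52 in RM0, with 63 of 69 below 0, -0.50 in RM2, with 58 of 69, and 0.06 in RM1, with 26 of 60. The 15 constitutive subunits of the anaphase-promoting complex, the 12 DREAM and MuvB components, the 10 cohesin genes and the 13 G1 cyclins and CDKs had medians of -0.01, 0.01, 0.15 and -0.14, and none passed in either direction in edgeR's quasi-likelihood test, with 2, 2, 2 and 4 genes at an unadjusted p under 0.05. Among the subunits, Anapc1 had a value of 0.24 and Anapc5 of -0.20.

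The 12 p53 arrest targets had a median of 0.31 in the common fit, and 1 rose. Ccng1, a cyclin induced by p53, had 2437, 2332 and 2710 counts in M0, M1 and M2 and 3647, 5611 and 4416 in RM0, RM1 and RM2, a rise of 0.81 on the log2 scale (adjusted p = 0.0146, edgeR quasi-likelihood test). Each irradiated library was above all 3 non-irradiated ones. Mdm2, the ligase that degrades p53, was at 0.28, 0.93 and 0.57 in RM0, RM1 and RM2 (adjusted p = 0.0714). Cdkn1a, which encodes the CDK inhibitor p21, had 11704, 18089 and 11102 counts without and 15258, 21973 and 11324 with irradiation, a common effect of 0.19 that did not pass (adjusted p = 0.472). Its level differed more by state, and it rose by 0.90 with M1 (adjusted p = 0.000619).

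**Figure D4:**
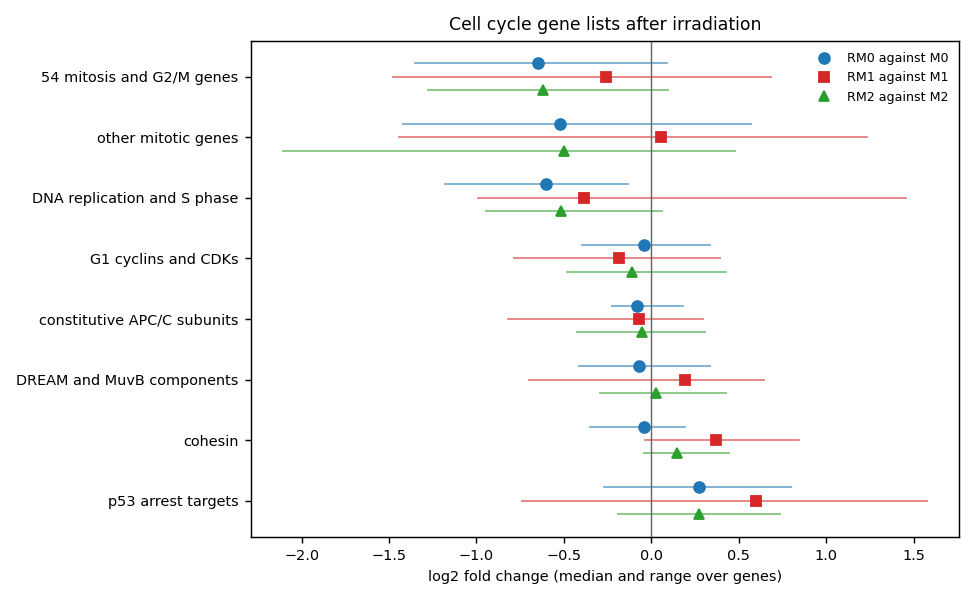
Median (points) and range over genes (lines) of the log2 fold change (x axis) for 8 lists of cell cycle genes (y axis) in RM0 against M0, RM1 against M1 and RM2 against M2, over genes that reached 10 counts in either library. The 54 mitosis and G2/M genes lie at -0.65, -0.26 and -0.62, the S phase genes beside them, and the p53 arrest targets to the right of 0.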

How the data were processed

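Total RNA was sequenced from 6 RAW264.7 conditions, 1 library each. Per the submitters' processing notes, Trimmomatic 0.36, HISAT2 2.2.1 and HTSeq 0.11.3 were used with mm10, and the authors deposited raw counts of reads per RefSeq gene, not normalized. Whether counting used strand was not stated. Of 24062 genes, 27 symbols had become dates and 8137 were at 0 in all libraries.

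Samples were grouped by the labels. The 54 genes, their mitotic steps and the other lists were chosen with earlier results of these data known. Counts were scaled with TMM (edgeR 4.0.16, R 4.3.3), computed on genes that reached 10 counts in 3 or more libraries. Between 2 libraries, a prior count of 2 was added for log2 fold changes, and genes with at least 10 counts in 1 of them were called at 2-fold, with no p-value. Intervals are exact 95% Clopper-Pearson intervals of counting error only. PCR copies are not independent molecules. The common fit used glmQLFit and glmQLFTest on polarization and irradiation over 11574 genes, with Benjamini-Hochberg adjustment at 0.05. It was tried on simulated counts with the same irradiation effect in each state and no polarization effect. That trial does not cover irradiation effects that differ between states. P-values measure only the spread between these libraries. The common biological coefficient of variation was 0.107.

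Values in every library are given for the 3 genes with the highest mean count of each step and for genes called in at least 2 irradiation comparisons or passing the irradiation test, 27 in all. Other genes described one by one were chosen after their values were seen. Overlaps and GC content came from GENCODE M21 and promoters from RefSeq. Alternatives were DESeq2 1.42.0 size factors and Wald test, library totals, other prior counts, filters and folds, removal of a GC trend, each state left out, and no polarization term. The test of a different irradiation change in M1, and its scalings, were chosen once values had been seen. Summaries, GC trends and plots were made in Python 3.11.15 (numpy 2.4.6; pandas 2.3.3; scipy 1.17.1; statsmodels 0.14.6; matplotlib 3.10.9). Exosomes were not analysed here.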

Additional observations from a re-analysis of the deposited data

Results flagged for a closer look

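For 6 genes the irradiation change in M1 differed from that in M0 and M2, in edgeR's quasi-likelihood test with Benjamini-Hochberg adjustment over all genes. The differences, as the change in M1 minus that in the other states on the log2 scale, were 1.20 for Kif11, 1.12 for Smc2, 1.09 for Prc1, 0.92 for Ncaph, 0.78 for Kif23 and 0.66 for Mki67. The adjusted p was 0.00166, 0.000119, 0.000728, 0.000615, 0.0141 and 0.0197 in the same order. In RM1 against M1 the values of these genes were 0.50, 0.65, 0.26, 0.47, 0.68 and -0.26. In RM0 against M0 they were -1.004, -0.62, -0.71, -0.45, -0.30 and -1.10, and in RM2 against M2 -0.42, -0.32, -0.92, -0.43, 0.09 and -0.75. The change in M1 comes from 1 pair of libraries, so a difference between these libraries and one between the states cannot be told apart.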

How the results depend on the processing

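Medians of the 54 genes kept their direction in all 7 comparisons under DESeq2 size factors, library totals and a prior count of 0.25, and in the 3 irradiation comparisons with the GC trend removed, and no called gene changed sign. The median of M1 against M0 was -1.10 with library totals, a scaling that moved the median of all genes by -0.46 there. At 1.5-fold, 34 genes were called in RM0 against M0, all lower, and 29 in RM2 against M2, all lower, against 3.47% and 3.85% of all genes lower. RM1 against M1 gave 10, with 8 lower and 2 higher, against 7.5% and 10.3%. M1 against M0 gave 34, with 29 lower and 5 higher, against 24.6% and 20.1%, and RM1 against RM0 gave 24, with 17 lower and 7 higher, against 17.9% and 14.7%. M2 against M0 gave 6 and RM2 against RM0 12, all higher, against 3.18% and 6.43%. With at least 50 counts, 2 were called in RM1 against M1 and 9 in RM1 against RM0, fewer genes being tested. With library totals, 9 were called in RM2 against M2. Shares of all genes were not computed for the minimum of 50 counts or for library totals in these pairs. Kif11 in RM0 against M0, Spc24 and Cenpa in M1 against M0 and Smc4 in RM1 against RM0 fell short of 2-fold under another scaling.

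The irradiation term was passed by 2 genes, by 0 with library totals, 5 with DESeq2 size factors in edgeR (0.251% of all genes lower), 11 with no filter beyond 1 count in total (0.515%), 0 with no polarization term and 4 in DESeq2's Wald test. With each state left out in turn, 1 to 41 passed, in fits that left 1 residual degree of freedom. They were 8 without M0 and RM0, 41 without M1 and RM1, and 1 without M2 and RM2. The cause of these moves was not tested. All these calls were toward lower levels. For M1, DESeq2's Wald test called 16 genes lower and 6 higher. The shares of all genes in that test were not computed, so these counts cannot be set against them. The test of a different irradiation change in M1 was passed by 6 genes with DESeq2 size factors and by 13 with library totals, against 3.63% and 12.6% of all genes higher. The polarization term of the common fit pairs the irradiated and non-irradiated library of each state, and the labels give no replicate numbers. Depth limits Ccnb2, Cdc25c, Cenpf, Ndc80 and Kif2c, whose irradiation change in M1 could not be measured at under 10 counts.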
